A study of Mus musculus with 8 samples.

Results

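The 10 genes of the early transcription factor response described here are the Fos family members Fos, Fosb, Fosl1 and Fosl2, the Jun family members Jun, Junb and Jund, and Atf3, Egr1 and Maff. They were chosen by symbol, and each was found once among the 27923 genes of the deposited single-cell tables and had a UMI (a counted transcript molecule) in all of the 8 libraries. The libraries were Seq-Well arrays (single-cell RNA-seq in nanowells) of 2 lung tumors, each from a different KP mouse, 1 male and 1 female. KP mice carry p53 fl/fl among their alleles, and tumors were started by instilling Adeno-SPC-Cre, an adenovirus with Cre behind the surfactant protein C promoter of alveolar type II cells, into the trachea at 12 weeks of age and dissected 16 weeks later. The mice were chimeras made from C57BL/6 KP embryonic stem cells in albino C57BL/6 blastocysts. Each tumor gave 1 Healthy/Tumor Border array, holding sorted cells that had been light-activated at the border with the caged dye calcein NVOC, and 3 Whole Tumor arrays of sorted viable cells. All 8 arrays share the mechanical and enzymatic dissociation and a sort on viability by calcein violet. The border cells were also exposed to the activating light and sorted on the activated dye, while the whole arrays came from tissue without photoactivation, so that region, light and gate cannot be told apart. The question put to each gene was how its level differed between cell classes within a library and between libraries within a cell class. The whole arrays of a tumor are technical arrays of 1 mouse, so every p-value here measures the spread between arrays and not between animals, and the border is 1 array per tumor, assumed to vary like the whole arrays.

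AP-1 is a family of dimeric transcription factors that bind DNA through a basic region and a leucine zipper (bZIP). Fos proteins pair with Jun proteins, while Jun proteins also pair with each other and with ATF proteins such as Atf3, a stress-induced member that can act as a repressor. Maff is a small Maf protein, a bZIP factor without a transactivation domain of its own that pairs with CNC factors such as Nfe2l2. Egr1 is not a bZIP protein but a zinc finger factor, induced together with Fos by serum, growth factors and stress. Most of these genes are transcribed within minutes of a stimulus without new protein synthesis and their mRNAs decay rapidly. Enzymatic dissociation of tissue is known to induce them, and neutrophils, macrophages and epithelial cells also use them in activation and differentiation.

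On GRCm38, in the GENCODE M21 annotation, Fos is at chr12:85473890-85477273 on the plus strand and Fosb at chr7:19302696-19310051 on the minus strand. Fosl1 is at chr19:5447547-5455946 and Fosl2 at chr5:32135801-32157842, both on the plus strand. Jun is at chr4:95049034-95052222 and Junb at chr8:84974484-84978718, both on the minus strand, and Jund is at chr8:70698949-70700616 on the plus strand. Atf3 is at chr1:191170296-191218039 on the minus strand and Maff at chr15:79346621-79359076 on the plus strand. Of the 10, 5 share bases with a gene on the other strand, namely Fosl1 with Ccdc85b, Jun with Junos, Junb with Prdx2, Jund with Gm11175 and Atf3 with Gm24748. Whether counting used strand is not given in the sources used here.

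The 200 bases before the RefSeq start site (GRCm38.p6) were searched for short motifs known from this gene group, since several members moved together in the comparisons that follow. RefSeq windows were at hand for 8 of the 10 members. The windows printed here, 5′ to 3′ in the direction of the gene, are those of Fos (chr12:85473690-85473889, plus strand), Fosb (chr7:19310046-19310245, minus strand), Jun (chr4:95052223-95052422, minus strand) and Atf3 (chr1:191183334-191183533, minus strand). Capitals mark the core of the cyclic AMP response element (TGACG, or CGTCA on the other strand), its 8-letter AP-1-like form TGACNTCA, the Egr site GCGNGGGCG and TATAAA, each searched on both strands.
Fos: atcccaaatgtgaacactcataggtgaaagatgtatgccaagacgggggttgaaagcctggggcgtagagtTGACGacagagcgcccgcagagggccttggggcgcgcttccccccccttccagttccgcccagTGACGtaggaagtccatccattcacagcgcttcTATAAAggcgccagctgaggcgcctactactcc
Fosb: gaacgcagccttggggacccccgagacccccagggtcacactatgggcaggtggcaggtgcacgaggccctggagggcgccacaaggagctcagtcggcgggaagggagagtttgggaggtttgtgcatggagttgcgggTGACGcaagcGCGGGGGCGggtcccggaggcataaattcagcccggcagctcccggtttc
Jun: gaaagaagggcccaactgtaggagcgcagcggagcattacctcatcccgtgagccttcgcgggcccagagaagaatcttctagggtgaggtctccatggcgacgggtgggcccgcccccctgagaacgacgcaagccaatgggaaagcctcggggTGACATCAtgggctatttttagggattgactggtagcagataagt
Atf3: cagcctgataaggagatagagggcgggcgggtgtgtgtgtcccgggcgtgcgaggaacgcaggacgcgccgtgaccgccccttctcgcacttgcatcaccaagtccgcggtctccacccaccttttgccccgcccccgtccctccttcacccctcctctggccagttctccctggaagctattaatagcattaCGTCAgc
Fos held TGACG starting 129 and 66 bases before the start and TATAAA starting 33 bases before it. Fosb held TGACG at 60 bases and an Egr site at 50 bases before the start, Jun held TGACATCA at 45 bases, and Atf3 held CGTCA at 7 bases. TGACG was in a window of 5 members (Fos, Fosb, Junb, Atf3 and Maff) and in 15.7% of 32851 windows of the same length before RefSeq starts. Maff has 3 starts and is counted where any of its 3 windows held a motif, while the shares are per single window. The form TGACNTCA, which can overlap TGACG, was in 2 members (Jun and Maff) and in 6.62% of windows. The Egr site was in 3 members (Fosb, Fosl2 and Maff) and in 4.28% of windows, and TATAAA was in 1 (Fos) and in 9.96%. The 7-letter AP-1 site TGANTCA, in 5.48% of windows, and the CArG box of serum response factor, in 1.18%, were in no window of the 8 members. These matches are letters in a window and not measured binding.

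Cells were placed in classes by marker genes, none of which is a member. Of 4343 barcodes, 3894 had at least 200 genes and were kept, and 3097 of these had at least 3 of 10 listed markers of 1 class and more of them than of any other class. The classes described here are called by their markers: 1367 neutrophil-like, 260 C1q+ macrophage-like, 82 alveolar macrophage-like, 50 dendritic-like, 113 B-like, 66 T or NK-like, 41 endothelial-like, 36 fibroblast-like, 160 Krt+ tumor-like and 33 Sftp+ tumor-like cells, and 759 cells with satellite-repeat transcripts. UMIs were summed per class and library, and the 40 sums of at least 10 cells were compared as CPM, counts of the gene scaled to a fixed total of UMIs, a scale that allows levels to be set side by side within a gene and, for these 3′ tag counts, between genes. Kept UMIs ran from 374369 to 2019162 per library. In all 8 libraries the tumor number inside the cell names is not the one in the sample label, and the label was followed. Xist was 399 to 609 CPM in the arrays labelled Tumor 1 and 2.04 to 2.67 in those labelled Tumor 2. Xist thus separates the 2 mice but does not by itself say which label is right. The border library labelled Tumor 1 held 686 barcodes and the one labelled Tumor 2 held 534. The paper gives the same border cell counts under the same tumor names, so the labels followed here match its naming. The neutrophil markers made up 159 of every 10000 UMIs in neutrophil-like cells and 6.31 in the other cells of the same libraries. The gate used these same markers, so this gap follows in part from the gate and does not measure how pure the class is. Free RNA was not removed.

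In neutrophil-like cells of Tumor 1, Atf3, Egr1, Maff, Jun and Junb were 1.93 to 3.34 times as high in the border array as in the mean of the whole arrays, whereas Fos, Fosl2 and Jund were not called. Atf3 was 1940 CPM at the border against 548.5, 721.5 and 472.6 in the 3 whole arrays. Egr1 was 2827 against 1091, 765.3 and 1147, and Jun, the partner of both Fos and Atf3 proteins, was 5400 against 2179, 2693 and 3048. For each of the 3 genes the border array lay above every whole array by more than the whole arrays' spread.
Junb was 1958 CPM against 1115, 898.2 and 1026, and Maff was 549 against 186, 240 and 247. Fos was 392 against 378, 289 and 314, so that its border array lay only just above the highest whole array. Fosl2 was 210 against 246, 226 and 268.5, and Jund was 635 against 701, 607 and 604, both with the border inside or below the whole range.

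With edgeR's quasi-likelihood test across all genes (TMM scaling, Benjamini-Hochberg adjustment), 6 of the 10 members were higher at the Tumor 1 border and none lower, where 6.78% of 6152 genes were higher and 1.43% lower. The log2 change was 2.26 ± 0.25 (SE) for Atf3 (adjusted p = 9.5e-10), 2.03 ± 0.25 for Egr1 (2.8e-08), 1.81 ± 0.27 for Maff (1.6e-06), 1.56 ± 0.25 for Jun (1.1e-05) and 1.48 ± 0.25 for Junb (2.6e-05). The 6th was Fosl1, with 8 UMIs in the border array and 1 in the 3 whole arrays together, a rate ratio of 13.9 (95% exact interval 1.86 to 617, counting error only). Fos had a log2 change of 0.80 (adjusted p = 0.0526), Fosb 0.82 (0.42), Jund 0.53 (0.26) and Fosl2 0.30 (0.59). Against scaling by the totals alone, TMM moved the median Tumor 1 difference of all genes up by 0.55 on the log2 scale. By DESeq2 Fos was called (1.10, adjusted p = 0.0392) and Fosl1 had no adjusted p. By totals the same 6 as in edgeR with TMM were called, and the changes were 1.71 for Atf3, 1.48 for Egr1, 1.26 for Maff, 1.01 for Jun and 0.93 for Junb, while Fosl2 (-0.25) and Jund (-0.02) turned negative.

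**Figure D1:**
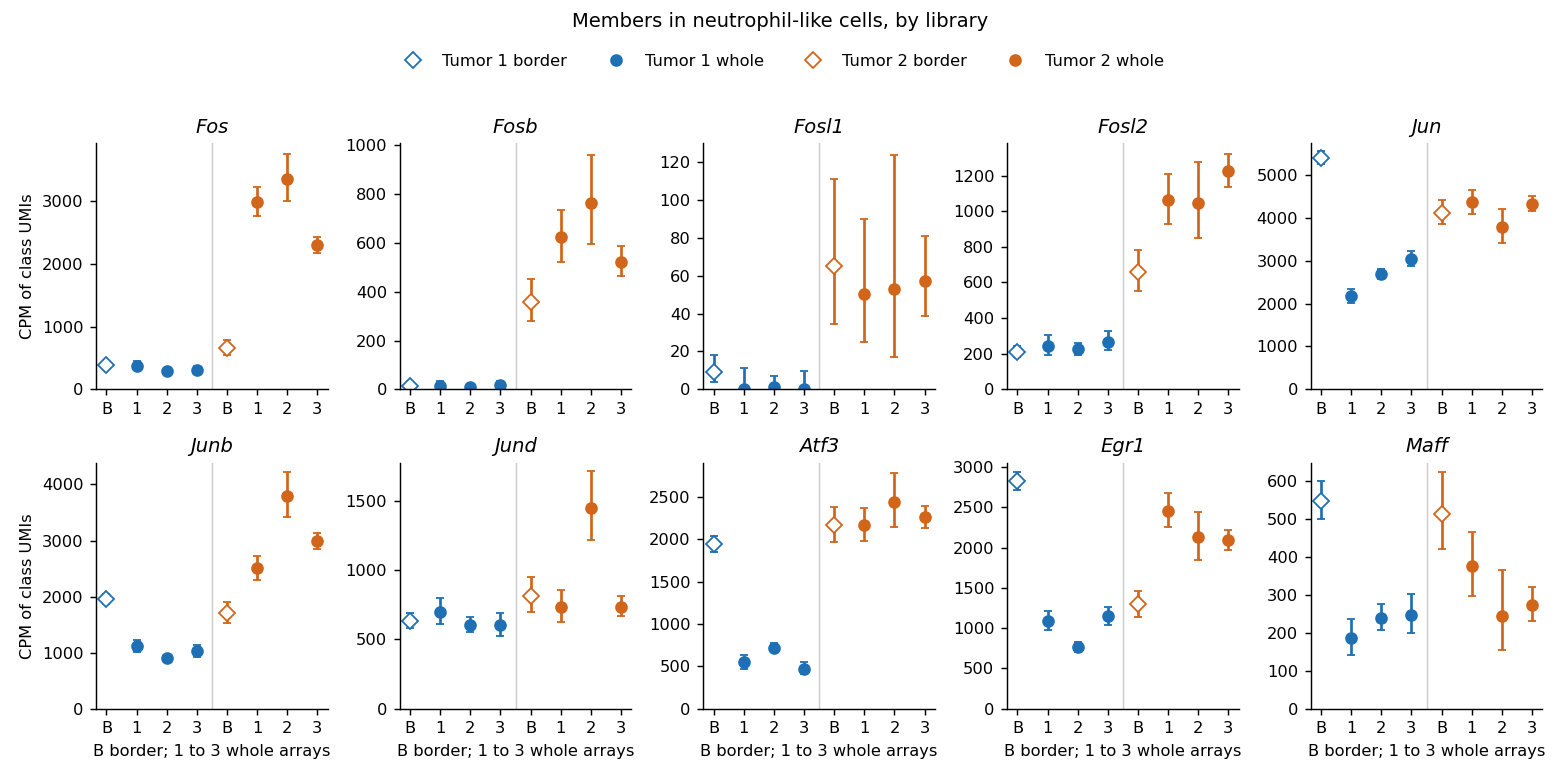
Level of each member in neutrophil-like cells, with 1 point per array on a linear CPM axis, diamonds for the border and circles for the whole arrays, and bars for 95% exact Poisson intervals of the UMI count. The Tumor 1 border array stands above the 3 Tumor 1 whole arrays for Atf3, Egr1, Jun, Junb and Maff, and the Tumor 2 border array stands below the Tumor 2 whole arrays for Fos.

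In neutrophil-like cells of Tumor 2, Fos, Fosb, Fosl2, Junb and Egr1 were lower at the border, and Atf3, Jun and Maff were not called. Of the genes lower here, Junb and Egr1 were called higher at the border of the other tumor. By CPM the Fosl2 border array lay below every whole array in both tumors. Fos was 660 CPM in the border array against 2990, 3357 and 2299 in the whole arrays, 0.229 of their mean. Fosb was 360 against 623, 762.5 and 521.5, and Fosl2 was 660 against 1062, 1048 and 1227. These 3 Fos family genes thus had the border array below every whole array, whereas Fosl1 did not.
Junb was 1706 CPM against 2505, 3802 and 2991, and Egr1 was 1295 against 2459, 2129 and 2092, again with no overlap. Atf3 was 2171 against 2171, 2446 and 2259, and Jun was 4121 against 4369, 3791 and 4323, so that for these the border lay at the whole level. Maff was 515 against 375.5, 244 and 274 and Fosl1 65.0 against 50.4, 53.0 and 56.9, the only members whose border array was the highest. For Fosl1 this rests on 13 UMIs against 11, 5 and 31, a rate ratio of 1.19 (95% exact interval 0.589 to 2.23, counting error only). Its log2 change in edgeR with TMM scaling was -0.18 and was not called.

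Of the 10 members, 5 were lower and none higher at the Tumor 2 border in the edgeR test, where 4.99% of genes were lower and 3.2% higher. The log2 change was -2.51 ± 0.32 for Fos (adjusted p = 6.0e-07), -1.25 for Junb (0.00383), -1.19 for Egr1 (0.00718), -1.19 for Fosb (0.0145) and -1.18 for Fosl2 (0.00793). It was -0.48 for Atf3 (0.308), -0.43 for Jun (0.381) and 0.35 for Maff (0.552). TMM here lowered the median change of all genes by 0.456 against the totals. By totals Fos was -2.11, Junb -0.84, Egr1 -0.77, Fosl2 -0.75, Atf3 -0.06 and Jun -0.01. Fosb, at -0.77 by totals, was then no longer called, and DESeq2 called 3 of the 5.

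The difference between the tumors was tested directly as the Tumor 1 border change minus the Tumor 2 border change. It was called above 0 for 9 of the 10 members, all but Jund (1.12, adjusted p = 0.0661), where 7.46% of genes were called above 0 and 3.43% below. Fos differed by 3.31, Egr1 by 3.22, Atf3 by 2.75, Junb by 2.74, Fosb by 2.01, Jun by 1.99, Fosl2 by 1.49 and Maff by 1.47 on the log2 scale. Since the scaling shift of this contrast is 1.01, the totals give the lower figures: Fos 2.36, Egr1 2.26, Junb 1.78, Atf3 1.77 and Jun 1.02 were called, and the other 5 were not.

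**Figure D2:**
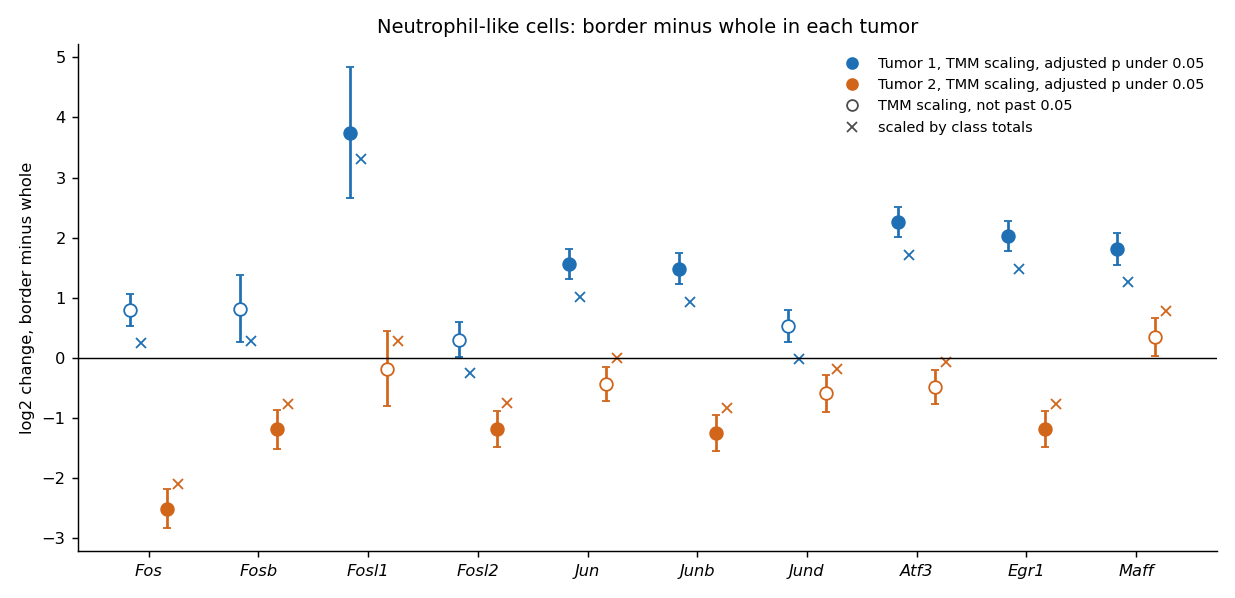
Border minus whole log2 change of each member in neutrophil-like cells of Tumor 1 and of Tumor 2, from the edgeR fit with TMM scaling, bars giving ± 1 SE, filled where called and crosses giving the change by totals. Most Tumor 1 values lie above 0 and most Tumor 2 values below it, with Fos at 0.80 and -2.51.

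The 2 tumors also differed in the level from which each border was measured. In the whole arrays all 10 members were called higher in neutrophil-like cells of Tumor 2 than of Tumor 1, where 22.4% of genes were called higher and 21.5% lower. The mean of the whole arrays was 48.1 times as high in Tumor 2 for Fosb, 8.82 times for Fos, 4.51 for Fosl2, 3.95 for Atf3 and 3.06 for Junb. It was 2.22 times as high for Egr1, 1.58 for Jun, 1.53 for Jund and 1.33 for Maff. The whole arrays of the 2 tumors overlapped only for Maff, which was also the only one not called by totals (0.39, adjusted p = 0.0931). Fosl1 had 47 UMIs in the Tumor 2 whole arrays and 1 in those of Tumor 1, a rate ratio of 83.7 (95% exact interval 14.3 to 3375). This contrast shares its whole arrays with both border contrasts. Tumor, mouse and sex cannot be told apart.

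Other features of the neutrophil-like cells moved with these contrasts, and their part in the results was not tested. Cells of the Siglec-F type by markers, a tumor-associated neutrophil state, were 89 of 324 at the Tumor 1 border and 24 of 120, 78 of 256 and 33 of 127 in its whole arrays, and 0 to 2 per array in Tumor 2. Within cells of the mature type alone, 5 members were higher at the Tumor 1 border (7.67% of genes were), 4 lower at the Tumor 2 border (3.52%) and 10 higher in the Tumor 2 whole arrays (21.4%). Within the Siglec-F type alone 5 of 8 members tested were higher at the Tumor 1 border (2.71% of genes). The neutrophil markers themselves summed to 146 per 10000 UMIs at the Tumor 2 border and 286 to 303 in its whole arrays, and to 111 at the Tumor 1 border and 107.5 to 125 in its whole arrays. The mature type markers were 46.0 at the Tumor 2 border against 68.7 to 75.2. The summed C1q+ macrophage markers were 0.808 at the Tumor 1 border against 2.79 to 4.65 in its whole arrays, and 2.20 at the Tumor 2 border against 1.38 to 2.79. The median of UMIs per cell was 597.5 in Tumor 2 whole array 2 and 1939 to 2641 in the others, and without that array the 6 members called at the Tumor 1 border and the 5 at the Tumor 2 border were still called. With cells of at least 500 genes only, that array fell from 138 to 14 neutrophil-like cells and 3 members were called at the Tumor 1 border and 1 at the Tumor 2 border, with member medians of 1.52 and -0.653.

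Most other early response genes were also higher at the Tumor 1 border. Of 26 other listed early response genes, 24 were tested there, 22 were higher and none lower (6.78% and 1.43% of all genes), with a median of 1.39 against -0.0776 over all genes. Dusp1, a phosphatase that switches off MAP kinases, rose by 2.80, Ier3 by 2.55 and Nfkbia, the inhibitor of NF-kappaB, by 2.39. Their summed level was 257.5 per 10000 UMIs at that border and 102 to 119 in the whole arrays. At the Tumor 2 border 9 were lower and 1 higher (4.99% and 3.2% of all genes), the median was -0.734 against 0.0443 over all genes, and Nr4a1, a nuclear receptor, fell by 1.82 and Dusp1 by 1.65. Their summed level there was 237 against 317 to 339. In whole arrays 22 of 24 were higher in Tumor 2, as were 22.4% of all genes.

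Of 20 listed bZIP relatives, 15 were tested: 3 were higher at the Tumor 1 border (6.78% of all genes), among them Mafk (1.38), a small Maf protein like Maff, and Atf4 (0.85), the factor of the integrated stress response, and 3 were lower at the Tumor 2 border (4.99% of all genes), among them Nfe2l2 (-1.31), the oxidative stress factor that pairs with small Maf proteins. Of 12 heat shock genes, 11 were tested; at the Tumor 1 border 1 was higher (Hspa5, 0.93) and 1 lower (Hsph1, -0.98), where 6.78% of all genes were higher and 1.43% lower. At the Tumor 2 border 5 were lower, where 4.99% of all genes were, with Hspa1b at -2.82, Hspa1a at -2.05 and Dnajb1 at -1.78. The heat shock list summed to 297 per 10000 UMIs at the Tumor 1 border, inside the range of its whole arrays (269 to 383). At the Tumor 2 border it summed to 102, below its whole arrays (150 to 205). Among 14 kinases and cofactors upstream of AP-1, 12 were tested and 1, the stress kinase Mapk14, was lower at both borders (-1.65 and -3.51).

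In other classes the border contrasts rested on fewer cells and gave few calls. In Tumor 2, Fos was lower at the border in alveolar macrophage-like cells, 418 CPM against 2388, 2319 and 2024, a log2 change of -2.48 ± 0.39 (adjusted p = 0.0015 in edgeR). It was the only 1 of 9 members tested that was called there, where 0.67% of genes were called in either direction. In C1q+ macrophage-like cells Fos was 1677 against 3319, 2944 and 2995, in B-like cells 624 against 1165 and 1394, in T or NK-like cells 466 against 1020 and 1068, and in the satellite-transcript cells 487 against 510 and 1706. The border was thus the lowest array for Fos in each of these classes. In the satellite-transcript cells this rests on 27 UMIs against 29 and 100, and the intervals of the border and whole array 1 overlapped. In dendritic-like cells Fos was 468.5 at the border against 399 in the 1 whole array with enough cells.
No member passed adjustment in edgeR at the Tumor 2 border in C1q+ macrophage-like cells (9 tested, 2 with unadjusted p under 0.05, 0.723% of genes called), B-like cells (9, 3 and 0.323%) or T or NK-like cells (7, 5 and 0.497%), and DESeq2 called none in any of them. In the satellite-transcript cells of Tumor 1, Egr1 (1.91), Junb (1.85) and Jun (1.76) had unadjusted p under 0.05 at the border, but none of 9 members passed adjustment (0.0686 to 0.123), by DESeq2 none either, and 0.512% of genes were called. Between whole arrays of the tumors, Fos (3.03) and Fosb (2.75) were higher in the satellite-transcript cells of Tumor 2, 2 of 9 tested against 4.09% of genes called. DESeq2 did not call Fos (adjusted p = 0.27), and both calls were lost without the filter on low counts or with a stricter gate.

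Over all kept cells, which mix these classes, 7 members were higher at the Tumor 1 border: Atf3 (2.76), Maff (2.44), Egr1 (2.34), Jun (2.26), Junb (1.93), Jund (1.00) and Fos (0.79), where 9.96% of 11232 genes were higher and 8.37% lower. By totals 5 were higher, Fos (0.25) and Jund (0.46) were not called, and Fosb (-0.98) and Fosl1 (-1.50) were lower, and DESeq2 called 5. At the Tumor 2 border Fos (-1.05) and Egr1 (-0.95) were lower, where 2.16% were lower and 1.02% higher. Both were called by totals, but DESeq2 called neither (adjusted p = 0.130 for Fos and 0.141 for Egr1). The difference between the border changes was called above 0 for 7 members, against 7.89% above and 6.93% below 0. By totals it was called above 0 for 6, Jund (1.09, adjusted p = 0.0596) no longer among them, and below 0 for Fosl1 (-1.83). All members but Fosl1 were higher in the Tumor 2 whole arrays, against 14.3% higher and 11.0% lower. Maff (0.64) was not called there by totals (0.33, adjusted p = 0.176) or by DESeq2 (0.50, adjusted p = 0.186), each of which called 8. The share of each class in a library enters these values, and fewer cells of a class and less RNA per cell cannot be told apart in them.

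Between classes of the same library, Atf3 and Junb were highest in neutrophil-like cells in 8 of 8 libraries, Egr1, Jun and Maff in 6, Jund in 5, Fosl2 in 3, Fos in 2, Fosb in 1 and Fosl1 in 0, among classes of at least 10 cells. There were 2 such classes to rank in the Tumor 1 border array, 3 in Tumor 2 whole array 2 and 4 to 9 in the others. Each class was then tested against the mean of the others over the 40 sums, with library as a term. Classes that never shared a library were compared only through the library terms, which assume the same library effect in every class. In neutrophil-like cells 8 of the 10 were higher and none lower, where 27.3% of 7147 genes were higher and 5.19% lower. The log2 differences were 1.95 ± 0.24 for Maff, 1.91 ± 0.22 for Egr1, 1.89 ± 0.23 for Atf3, 1.51 ± 0.21 for Jun, 1.38 for Junb, 1.29 ± 0.22 for Fosl2, 1.10 ± 0.19 for Jund and 0.79 for Fos. By totals 7 were higher, Fos at 0.32 was not called, and Fosb was lower (-0.80). With the Tumor 1 libraries alone, 6 were higher and 2 lower (19.6% and 8.52% of genes): Fosb (-2.12) and Fosl1 were lower, and Fos (0.22, adjusted p = 0.619) and Fosl2 (0.01, adjusted p = 1) were not called. With the Tumor 2 libraries alone Fos was 1.04 and Fosl2 1.85, both called.

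**Figure D3:**
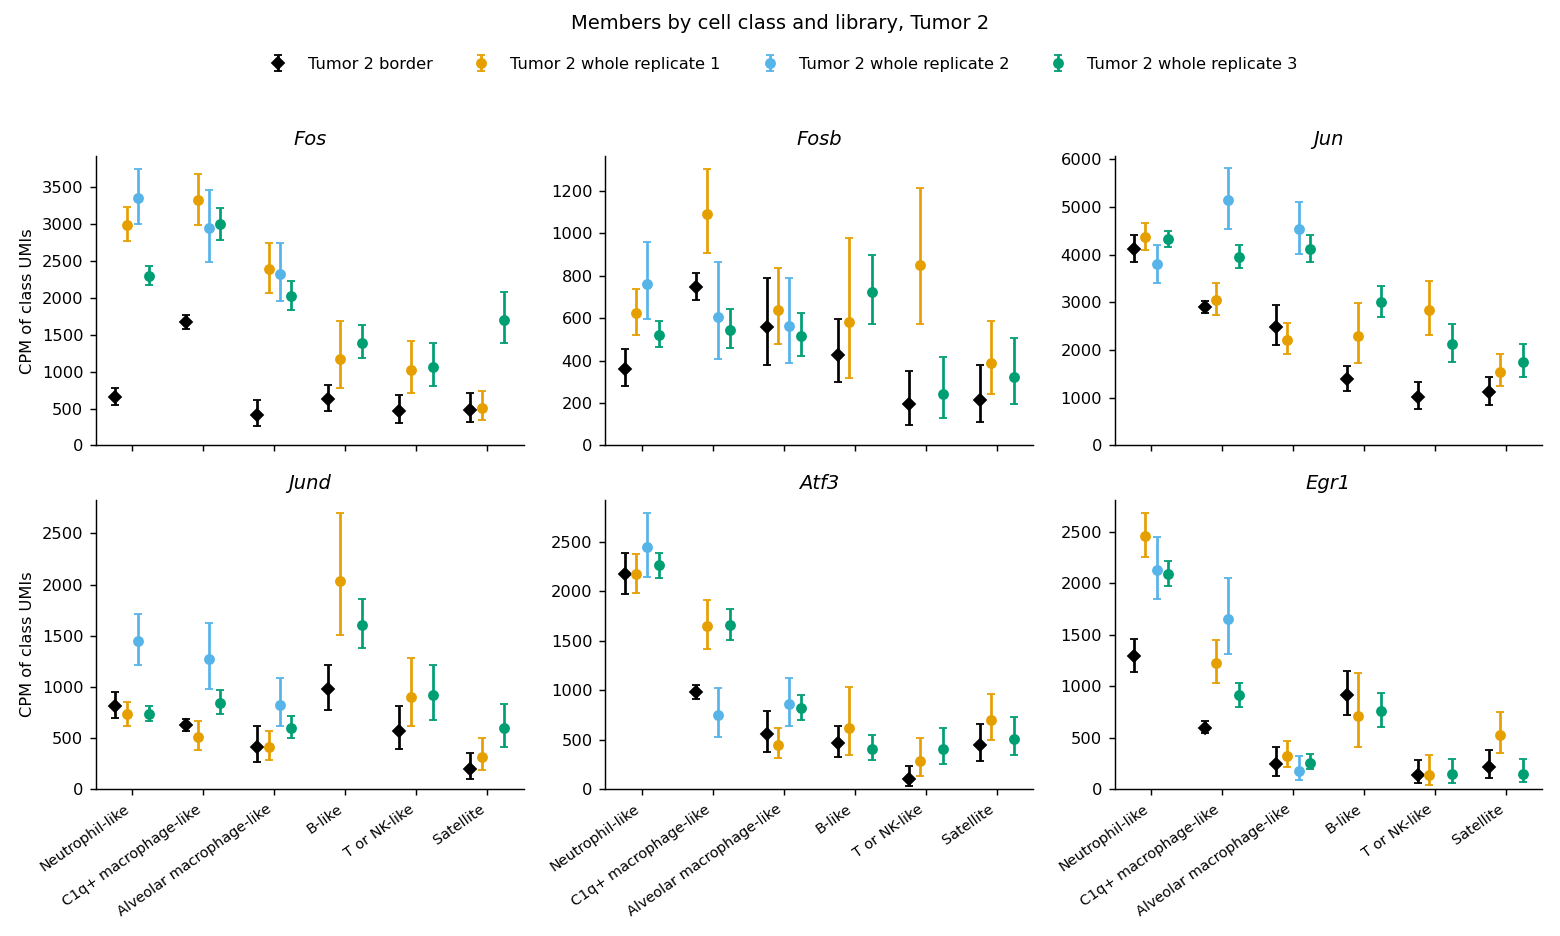
Level in CPM of 6 members by class in the 4 Tumor 2 libraries, 1 point per sum of at least 10 cells, with 95% exact Poisson intervals of the UMI count. Atf3 is highest in neutrophil-like cells in each library. The border array (diamond) is the lowest for Fos in each of the 6 classes shown, dendritic-like cells not being plotted. In satellite-transcript cells its interval overlaps that of whole array 1.

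In Krt+ tumor-like cells, named by keratins and present in Tumor 1 in numbers that allow a sum, 5 of 10 members were higher (18.5% of genes higher, 2.36% lower): Fosl1, Fosb (3.25 ± 0.48, adjusted p = 2.3e-07), Fos (1.80), Egr1 (1.40) and Atf3 (1.21). By totals Fosl1, Fosb and Fos were called. DESeq2 did not call Atf3 (1.31, adjusted p = 0.0574) and called Jund (0.79, adjusted p = 0.0445). With the Tumor 1 libraries alone Egr1 was no longer called (0.44, adjusted p = 0.2), Jund (0.90) was higher and Fosl2 (-1.24) lower. Egr1 was 953, 687 and 624 CPM in these cells in the Tumor 1 whole arrays, below the neutrophil-like cells of each array (1091, 765 and 1147). Fosb was 272, 127 and 140 CPM in these cells in the Tumor 1 whole arrays, against 15.0, 8.53 and 16.1 in neutrophil-like cells of the same arrays. Fosl1 was 151, 157 and 14.0 CPM there, against 0, 1.22 and 0 in neutrophil-like cells. Fosb was thus higher in the Krt+ tumor-like cells in each of the 3 arrays, and Fosl1 in arrays 1 and 2. In array 3 Fosl1 had 2 UMIs in these cells against 0 in neutrophil-like cells, with overlapping intervals.
Fosl1 had no UMI in the T or NK-like cells of any library, and because the fitted change against such classes depends on the prior count no fold is given for it. In C1q+ macrophage-like cells Fos (0.96 ± 0.25) and Egr1 (0.93) were higher, where 18.7% of genes were higher and 0.756% lower, a share of members near that of all genes. RLE scaling ended both calls and DESeq2 called 7 members.

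Lymphoid and alveolar macrophage-like cells were low in several members. In T or NK-like cells Egr1 (-2.78 ± 0.49), Maff (-2.61 ± 0.65), Atf3 (-2.33 ± 0.46), Fos (-1.45 ± 0.38) and Fosb (-1.41) were lower and none was higher, where 2.94% of genes were lower and 8.13% higher. Egr1 was 143, 142 and 150 CPM in the 3 Tumor 2 sums of these cells, against 1295 to 2459 in neutrophil-like cells. Fosl2, by contrast, was 645, 1331 and 1481 CPM in T or NK-like cells. Its log2 difference was 0.84 (adjusted p = 0.0957) with TMM and 1.31 (0.000865) by totals. In B-like cells Jund (1.10 ± 0.28) was higher, at 979, 2039 and 1608 CPM in Tumor 2, and Fosl2 (-3.05 ± 0.49), Atf3 (-1.32) and Fos (-1.04) were lower, where 9.79% of genes were higher and 4.58% lower. By totals Atf3 (-0.90) and Fos (-0.61) were no longer called there, nor was Fosb in T or NK-like cells (-0.94).
In alveolar macrophage-like cells Egr1 (-1.61 ± 0.37) and Junb (-0.79) were lower, where 3.2% of genes were lower and 18.3% higher. The Junb call was lost on leaving out any Tumor 2 array, with whole arrays only and without doublets. With cells of at least 500 genes neither was called. Egr1 was 244, 326, 182 and 260 CPM there in the Tumor 2 arrays, while Fos in the same cells was 2024 to 2388 CPM in the whole arrays. In the satellite-transcript cells Fos (-0.85) and Junb (-0.83) were lower, where 7.35% of genes were lower and 42.3% higher. By totals Fos (-0.57) was not called there.

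How much of each member's variation lay between classes and how much between libraries was set out for sums shared by all libraries, as shares of the variance of log2 (CPM + 10), with no test. In Tumor 2, over 6 classes in the border array and whole arrays 1 and 3, Fos had 38.7% of its variance between classes and 45.3% between libraries, and Fosb 47.5% and 26.7%. The class share was 91.0% for Egr1, 90.7% for Fosl1, 86.7% for Atf3, 85.7% for Junb, 80.6% for Fosl2, 75.3% for Jund, 75.1% for Maff and 65.8% for Jun, and their library shares ran from 3.14% to 18.7%. Over 2372 genes the median was 72.8% between classes and 3.87% between libraries. Fos was the only member with a larger library than class share. Without the satellite-transcript cells, a setting added after the data were seen, its shares were 36.9% and 53.95%.
In Tumor 1, over 4 classes in the 3 whole arrays, the class share was 60.4% for Fos, 67.7% for Maff, 71.4% for Fosl2, 73.7% for Fosl1, 77.6% for Atf3, 80.2% for Egr1, 82.5% for Jun, 83.6% for Fosb, 91.9% for Jund and 92.8% for Junb, beside a median of 77.0% over 2723 genes. Fos had the lowest class share and the highest library share (15.6%) of the 10 here too. Its satellite-transcript sums in this grid held only 20, 4 and 1 UMIs of Fos, at 250, 123 and 15.1 CPM. The shares without these cells were not computed for Tumor 1.

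**Figure D4:**
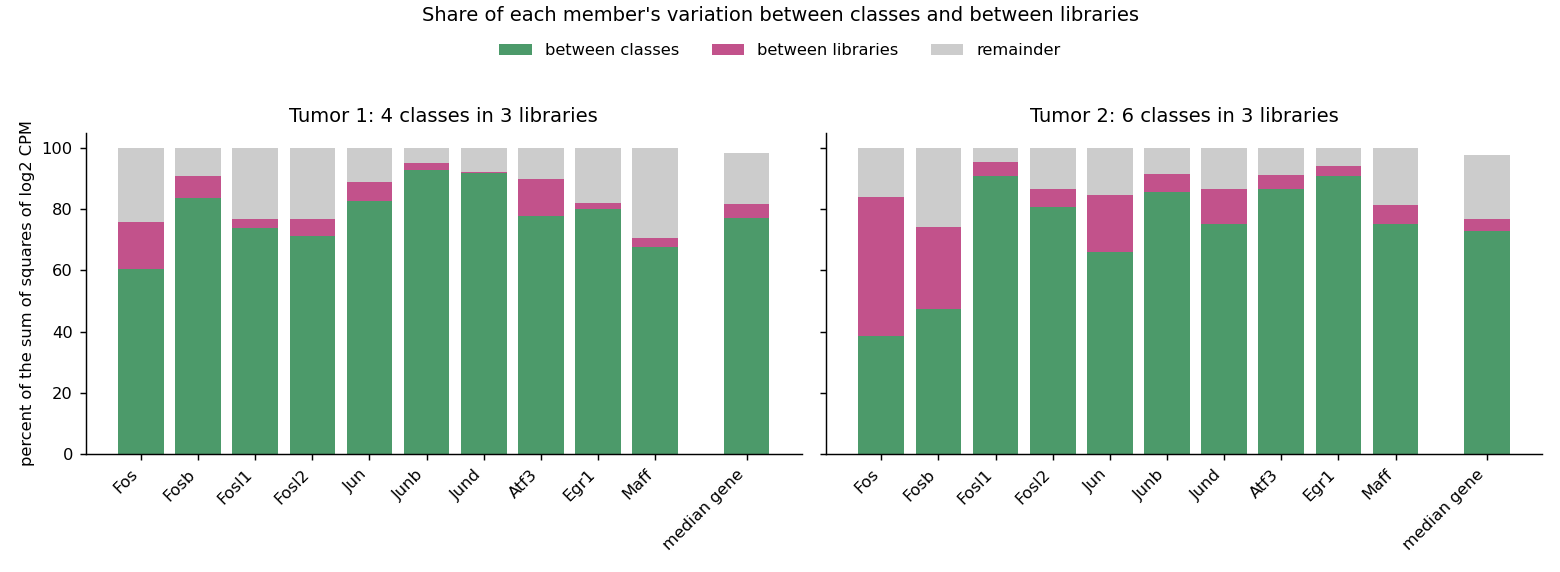
Percent of the sum of squares of log2 (CPM + 10) between classes, between libraries and in the remainder, stacked for each member and for the median of all genes (taken share by share), in Tumor 2 and in Tumor 1. In Tumor 2 the library share of Fos (45.3%) exceeds its class share (38.7%), which holds for no other member.

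Likeness over the 40 sums was described by Spearman's rho against 5091 genes. These sums share libraries and classes and differ in depth. Within the group, Fos and Fosb were most alike (0.869), followed by Jun and Junb (0.801) and Atf3 and Jun (0.797), whereas Egr1 and Fosb had a rho of 0.0807. Fos was most like Btg2 (0.768), an antiproliferative early response gene, and Gadd45g (0.706), a stress-induced gene. Jun was most like Btg2 (0.817) and Ier5 (0.815), and Junb most like Ppp1r15a (0.883), a phosphatase subunit of the stress response. Atf3 was most like Zfp36 (0.826), which destabilises mRNAs, and Dusp1 (0.824). Fosl2 was most like Itpkb (0.782) and Hif1a (0.732), Jund most like Klf2 (0.793), Egr1 most like Ets2 (0.770) and Maff most like Rabgef1 (0.747) and Nfe2l2 (0.721). Fosb was most like the Y-linked Ddx3y (0.737), which was also among the nearest to Fos (0.691) and which separates the 2 mice. Fosl1 had no close match, its highest being Anxa1 (0.541).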

How the data were processed

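The authors aligned Seq-Well reads to mm10 (GRCm38) with STAR 2.5.2b after bcl2fastq 2.17.1.14, followed the Drop-seq protocol, collapsed reads by UMI and deposited a table of raw UMI counts per gene and cell for each of 8 arrays. Barcodes with at least 200 genes were kept, with no mitochondrial filter (highest share 91.5%), and the 57 doublets called by Scrublet (scanpy 1.11.5) were kept. Counts were summed per class and library. The class gate was set after class sizes, but not member levels, had been seen, and the members and lists were chosen with earlier results of these data known. Sums were fitted with edgeR 4.0.16 in R 4.3.3 over all genes (TMM, filterByExpr, quasi-likelihood test, Benjamini-Hochberg adjustment, threshold 0.05), for border contrasts as 1 mean per tumor and region, for class contrasts with class and library as terms. Class contrasts used all sums of at least 10 cells, and not every class had such a sum in each library. Krt+ tumor-like sums came only from the Tumor 1 whole arrays. Alveolar macrophage-like, B-like and T or NK-like sums came only from Tumor 2. Classes that shared no library were compared only through the library terms. Named genes are the 10 members and the leading genes of each list or likeness ranking. Alternatives were DESeq2 1.42.0, RLE, totals, no filter, stricter cells and gates, and each library left out. The fits were tested on simulated data. Whole arrays 1 to 3 of the tumors share only a number: the deviations of neutrophil-like sums with the same number correlated at 0.034, 0.00317 and -0.0104. Intervals cover counting error only. Results that need items withheld from this text are not reported here.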

Additional observations from a re-analysis of the deposited data

Results flagged for a closer look

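The Tumor 1 border change exceeded the Tumor 2 border change by the test of the difference itself (edgeR, 8 libraries, 1 border array per tumor) in neutrophil-like cells and over all kept cells. In neutrophil-like cells the log2 difference was 3.93 for Fosl1, 3.31 for Fos, 3.22 for Egr1, 2.75 for Atf3, 2.74 for Junb, 2.01 for Fosb, 1.99 for Jun, 1.49 for Fosl2 and 1.47 for Maff. The Fosl1 value rests on 1 UMI in the Tumor 1 whole arrays. Over all kept cells it was 3.40 for Atf3, 3.30 for Egr1, 3.02 for Jun, 2.56 for Maff, 2.53 for Junb, 1.84 for Fos and 1.82 for Jund. The classes differ in number between border and whole, and their part in the values over all cells was not tested.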

How the results depend on the processing

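Among 86 called member changes under 1377 alternative values, 1260 kept their direction and call, 117 kept the direction and lost the call, and 0 reversed. Counts of members called in neutrophil-like cells moved as follows: at the Tumor 1 border, 6 became 3 with cells of at least 500 genes; at the Tumor 2 border, 5 became 3 by DESeq2, 1 with at least 500 genes and 3 without the filter on low counts; the difference, 9, became 2 with at least 500 genes and 5 with mature-type cells only, without the filter or by totals. With each library left out, these counts ran from 6 to 7, at 5, from 8 to 10 and, between tumors, at 10. For the classes, alveolar macrophage-like, 2, became 0 with at least 500 genes and 1 with under 25% mitochondrial UMIs, without doublets, without the filter or with whole arrays only (1 to 2 leaving out a library); B-like, 4, became 2 by DESeq2, at 500 genes and by totals; C1q+, 2, became 7 by DESeq2, 0 by RLE, 5 at 500 genes, 4 under 25% mitochondrial and 6 without the filter; Krt+, 5, became 3 by totals. Satellite-transcript cells, 2, became 7 by DESeq2, 1 by RLE, 5 in Tumor 1 only, 0 in Tumor 2 only, 1 under 25% mitochondrial, 6 without the filter, 1 by totals and 4 with a stricter gate (1 to 3 leaving out a library). At their Tumor 1 border 0 became 2 without Tumor 1 whole array 2 (0 to 2), and between tumors 2 became 1 by DESeq2, 0 without the filter or with a stricter gate and 4 without that array (2 to 4). Over all cells at the Tumor 2 border 2 became 0 by DESeq2, at 500 genes and without the filter (1 to 3). The cause was not tested. Leaving out a library ended calls for Fosl1 at the Tumor 1 border (without Tumor 2 whole array 3, adjusted p = 0.062) and in the difference (without Tumor 1 whole array 3, 0.0575, or Tumor 2 whole array 3, 0.139), Fosb in the difference (without Tumor 1 whole array 2, 0.156), Junb in alveolar macrophage-like cells (without any Tumor 2 array, 0.0644 to 0.165), Egr1 in C1q+ cells (without Tumor 1 whole array 2, 0.0615), Fos in B-like cells (without Tumor 1 whole array 2, 0.0502, or 3, 0.0506), Fos in satellite-transcript cells (without Tumor 1 whole array 2, 0.0591, or 3, 0.109, or Tumor 2 whole array 1, 0.0558) and Junb there (without the Tumor 2 border, 0.0648, or Tumor 2 whole array 3, 0.067), and over all cells for Fos and Jund at the Tumor 1 border, Egr1 at the Tumor 2 border and Maff between tumors. The fit with a replicate block, which pairs arrays that share only a number, called 10 members between tumors in neutrophil-like cells, 2 in satellite-transcript cells and 9 over all cells, the same counts as without it. Low depth limits Fosl1, with 369 UMIs in all kept cells.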

Other observations

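Stromal classes each gave 1 sum of at least 10 cells, in Tumor 2 whole array 3, and entered no comparison of their own. The 10 fibroblast-like cells had 6154 CPM of Fos, 5139 of Egr1 and 1984 of Fosb, above the 2299, 2092 and 521.5 CPM of the neutrophil-like cells of the same array. Their Atf3 was 1826 CPM against 2259. The 15 endothelial-like cells had 2576 CPM of Fos, 2112 of Atf3 and 4688 of Jun, beside 2299, 2259 and 4323 CPM in the neutrophil-like cells.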
